A study of Homo sapiens with 6 samples.

Results

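Connexins are the proteins of gap junctions, and 5 of their genes are described here: GJA1, GJB2, GJB5, GJB6 and GJC1. They were chosen by gene symbol as a set of connexin genes, with earlier results of these data known. All 5 were found among the 60591 genes of the table, which holds 21 connexin genes in all. The cells were KYSE150, an established human line from a squamous cell carcinoma of the oesophagus. One group of 3 libraries came from KYSE150 cells given TPA, a phorbol ester that activates protein kinase C, at 10 ng/ml for 24 h. The other 3 libraries came from KYSE150 cells given DMSO, for which the labels state neither a dose nor a time. The protocol describes an overnight period without serum before TPA. RNA sequencing reads were deposited as raw counts per gene, and the labels do not say whether libraries of a group came from separate cultures, and p-values therefore cover the spread between libraries, which may be technical.

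Connexin chains assemble into rings called connexons, and connexons of neighbouring cells dock into a channel that passes ions and small metabolites. Squamous epithelia are known for expressing several connexins in different layers. Phorbol esters are known for closing gap junctions in cultured epithelial cells, and GJA1 protein is a substrate of protein kinase C and of ERK kinases. The measurements below are of transcripts only.

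Several libraries stood apart in ways that touch every value below. Totals ran from 28915283 to 33965547 counts in TPA and from 27702329 to 30207144 in DMSO. Across genes, log2 CPM of TPA 1 correlated more closely with DMSO 1 (r = 0.974) than with TPA 2 (0.927) or TPA 3 (0.936), and counts of TPA 2 and TPA 3, and of DMSO 2 and DMSO 3, were the closest pairs, with a chi-square over its degrees of freedom of 6.48 and 8.31, above the 1 of sampling noise. Ratios in the pairs numbered 2 and 3 also followed the GC content of the transcript. Values are therefore given by library and by numbered pair, and again from fits that use the replicate number as a block or remove each library's trend on GC content. All 8 squamous epithelial markers checked were detected in every library, and their summed level was 1124 to 2127 CPM in TPA and 1509 to 3083 CPM in DMSO. Their levels were uneven. KRT5 ran from 66.7 CPM in TPA 1 to 509 in TPA 3, and from 428 in DMSO 1 to 1780 in DMSO 3. KRT14 was at 6.05 CPM in TPA 1 and 6.45 in DMSO 1, and KRT6A at only 0.461 to 1.82 CPM in DMSO. The 6 fibroblast markers summed to 3.05 to 10.5 CPM in TPA and 5.20 to 12.2 CPM in DMSO, with DCN at 0 in every library, and the 4 endothelial markers to 0.979 to 2.25 CPM in TPA and 2.20 to 2.93 CPM in DMSO, with KDR at 0 in every library. The 4 leukocyte markers summed to 3.55 to 8.51 CPM in TPA and 4.31 to 5.57 CPM in DMSO. The 4 glial markers summed to 43.0 to 60.9 CPM in TPA and 72.5 to 79.6 CPM in DMSO, nearly all of it MBP. The part of any of these in the connexin values was not tested.

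The promoters of the connexins with the clearest opposite differences are shown first, because an AP-1 site is the classical response element of TPA. Each window holds 250 bases before and 50 bases after the RefSeq gene start (GRCh38.p14). GJA1 lies at chr6:121435396-121435695 (plus strand) and GJB2 at chr13:20192889-20193188 (minus strand). Capitals mark the AP-1 motif TGANTCA and the GC box GGGCGG, searched on both strands.
GJA1: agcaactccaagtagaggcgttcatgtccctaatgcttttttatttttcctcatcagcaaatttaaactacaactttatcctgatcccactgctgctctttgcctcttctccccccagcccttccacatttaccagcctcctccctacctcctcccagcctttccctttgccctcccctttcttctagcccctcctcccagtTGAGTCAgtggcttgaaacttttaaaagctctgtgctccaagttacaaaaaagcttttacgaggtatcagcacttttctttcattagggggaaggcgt
GJB2: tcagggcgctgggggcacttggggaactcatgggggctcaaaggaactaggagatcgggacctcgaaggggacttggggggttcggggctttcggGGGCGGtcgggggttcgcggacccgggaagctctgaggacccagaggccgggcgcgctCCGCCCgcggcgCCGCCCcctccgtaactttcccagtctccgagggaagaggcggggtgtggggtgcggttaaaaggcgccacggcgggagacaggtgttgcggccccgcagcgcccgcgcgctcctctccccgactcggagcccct
The GJA1 window held 1 AP-1 match, TGAGTCA, from base -48 to -42 relative to the RefSeq gene start, and no GC box. In the GENCODE annotation, used below for whole genes, GJA1 starts earlier, at 121435577, inside this window. The match lies after that start, so its place upstream of GJA1 depends on the annotation. The GJB2 window held 3 GC boxes, at -155 to -150 and, on the other strand, at -97 to -92 and -85 to -80, and no AP-1 match. Its GC content was 71.7%, against 47.0% for GJA1 and a median of 58.7% over 35116 promoter windows. Of those windows, 7.71% held the AP-1 motif and 45.0% the GC box. Neither motif was in the GJB6 window (chr13:20230929-20231228, minus strand). In the GENCODE annotation GJB6 starts earlier, at 20232395, and this window lies inside the gene. The bases upstream of that start were not searched. A match is a description of letters and not of binding. GJB5 and GJC1 are not among these sequences.

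The 5 genes differed widely in level and in what they did (the plot of levels in each library). GJB5 and GJC1 were abundant, GJA1 and GJB2 were low, and GJB6 was hardly detected. GJB2 and GJC1 were higher in all 3 TPA libraries than in any DMSO library, and GJA1 was lower. Of all genes tested, 14.3% were higher and 15.2% lower in this way. In bulk RNA, fewer cells that express a gene and less RNA per cell cannot be told apart. No member passed edgeR's quasi-likelihood test over all 21825 genes tested at an adjusted p under 0.05, where 0.861% of genes were called higher and 0.394% lower. GJB6 did not pass the filter on low counts, and of the other 4 members 3 had an unadjusted p under 0.05, as did 22.1% of all genes tested. DESeq2 called 2 members higher and 1 lower, against 7.8% of genes higher and 4.19% lower, and limma-voom called 0, against 1.13% and 0.596%. With the replicate number as a block, GJB2 and GJC1 were called higher and GJA1 lower, against a background of 4.58% higher and 6.52% lower. The block with the GC correction called the same 3 members, against 9.24% higher and 10.7% lower.

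**Figure D1:**
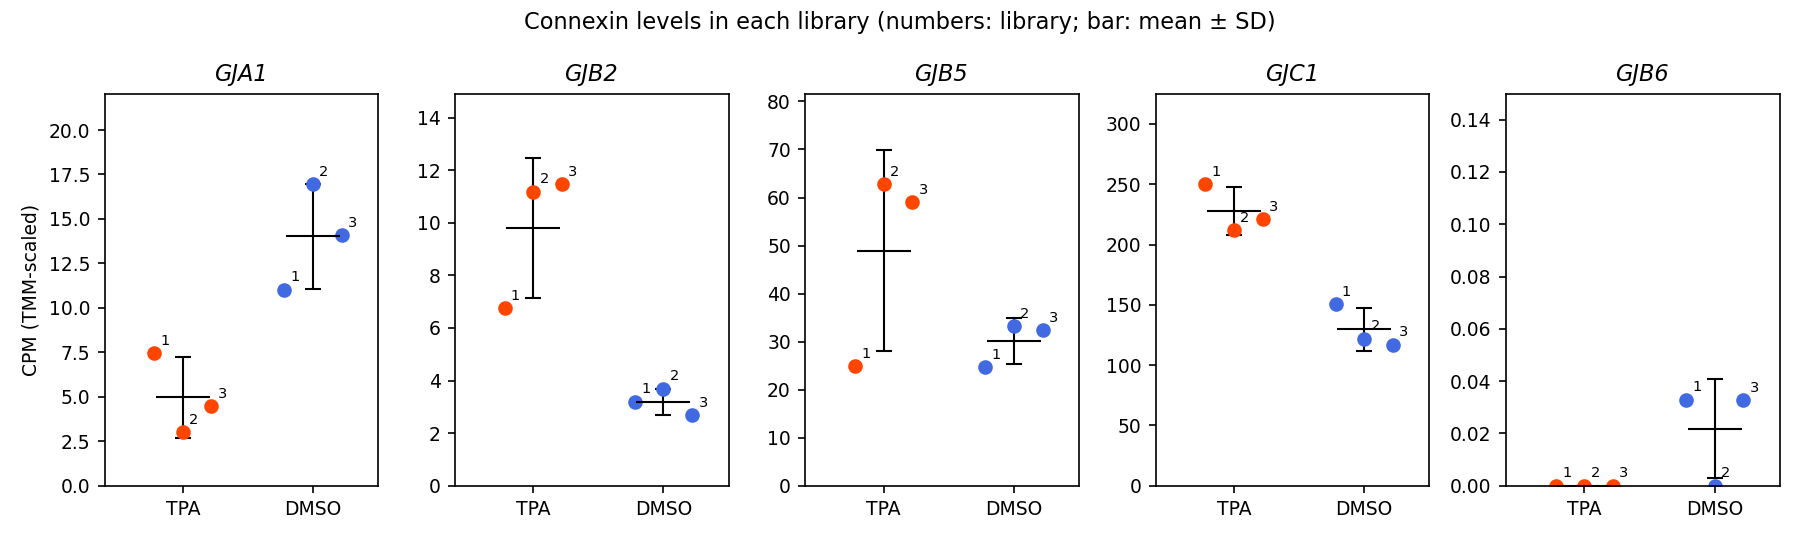
CPM (vertical axes, each from 0 and on its own scale) of the 5 connexin genes in TPA and DMSO libraries; points are libraries with their numbers, and bars are the mean and SD of 3. GJB2 and GJC1 lie higher in every TPA library than in any DMSO library, GJA1 lies lower, GJB5 overlaps through TPA 1, and GJB6 is at 0 in every TPA library.

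GJA1 encodes connexin 43 (CX43), the most widely expressed connexin and the one most studied as a target of tumour promoters. Its gene lies on chromosome 6, 121435577 to 121449727, plus strand (whole genes are given on GRCh38 from GENCODE 29). It had 206, 89 and 137 counts in TPA 1, 2 and 3, against 335, 556 and 432 counts in DMSO 1, 2 and 3. Scaled for depth these were 7.47, 2.99 and 4.47 CPM in TPA and 11.0, 17.0 and 14.1 CPM in DMSO. The groups did not overlap, and TPA 1 lay closest to the DMSO libraries; of all genes tested, 15.2% were lower in every TPA library than in any DMSO library and 14.3% were higher in every one. The mean was 4.97 ± 2.28 CPM in TPA and 14.0 ± 2.97 CPM in DMSO (SD, n = 3 each), and the log2 fold change was -1.50 ± 0.37 (SE, adjusted p = 0.0816 in edgeR's quasi-likelihood test). With the replicate block it was -1.56 ± 0.35 (edgeR adjusted p = 0.0205).

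The GJA1 difference was smaller after the correction for GC content. Its longest transcript holds 40.6% G and C. Between libraries of the same number, the log2 ratio of TPA over DMSO for GJA1 was -0.56, -2.48 and -1.64 in pairs 1, 2 and 3. Expressed genes within 1 percentage point of that GC content (n = 1055) had median ratios of 0.07, -0.96 and -0.69 in the same pairs. GJA1 was thus below such genes in all 3 pairs (the plot of ratios in numbered pairs). After the GC correction, which called 3.39% of genes higher and 3.2% lower, its log2 fold change was -1.08 ± 0.25 (edgeR adjusted p = 0.04999), and with the block added -1.04 ± 0.21 (edgeR adjusted p = 0.0252). The values without both libraries numbered 1 were larger, at -1.90 ± 0.17.

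A processed pseudogene takes reads that resemble those of GJA1. GJA1P1, on chromosome 5 (109051315 to 109052457), aligned over its 1143 bases to the GJA1 transcript with 97.0% identity, so reads may be split or lost between them. It had 96, 21 and 22 counts in TPA and 55, 59 and 86 counts in DMSO, and TPA 1 was the highest library. With GJA1P1 counts added to those of GJA1, the log2 fold change was -1.29 (edgeR adjusted p = 0.133), an alternative chosen after these counts were seen.

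GJB2 encodes connexin 26 (CX26), which in skin is known to be induced in hyperproliferative and wounded epidermis and whose gene is a major locus of inherited deafness. It lies on chromosome 13, 20187463 to 20193010, minus strand. The gene had 186, 333 and 352 counts in TPA, against 97, 121 and 82 counts in DMSO. That was 6.74, 11.2 and 11.5 CPM in TPA 1, 2 and 3 and 3.19, 3.69 and 2.67 CPM in DMSO 1, 2 and 3. Every TPA library was above every DMSO library, and TPA 1 was the lowest of its group. The means were 9.80 ± 2.66 CPM in TPA and 3.19 ± 0.51 CPM in DMSO (SD, n = 3 each). The log2 fold change was 1.62 ± 0.30 (adjusted p = 0.0545, edgeR quasi-likelihood), and 1.59 ± 0.28 with the replicate block (edgeR adjusted p = 0.00817).

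The correction for GC content hardly moved the GJB2 estimate. Its transcript has 45.9% G and C, and 908 expressed genes of like content had median log2 ratios of 0.06, -0.20 and 0.00 in pairs 1, 2 and 3. GJB2 had ratios of 1.06, 1.58 and 2.08 in those pairs, so that the pair numbered 1 showed the smallest difference but the same direction. Both corrections together gave 1.65 ± 0.24 (edgeR adjusted p = 0.0124). Without both libraries numbered 1 the log2 fold change was 1.98 ± 0.16.

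**Figure D2:**
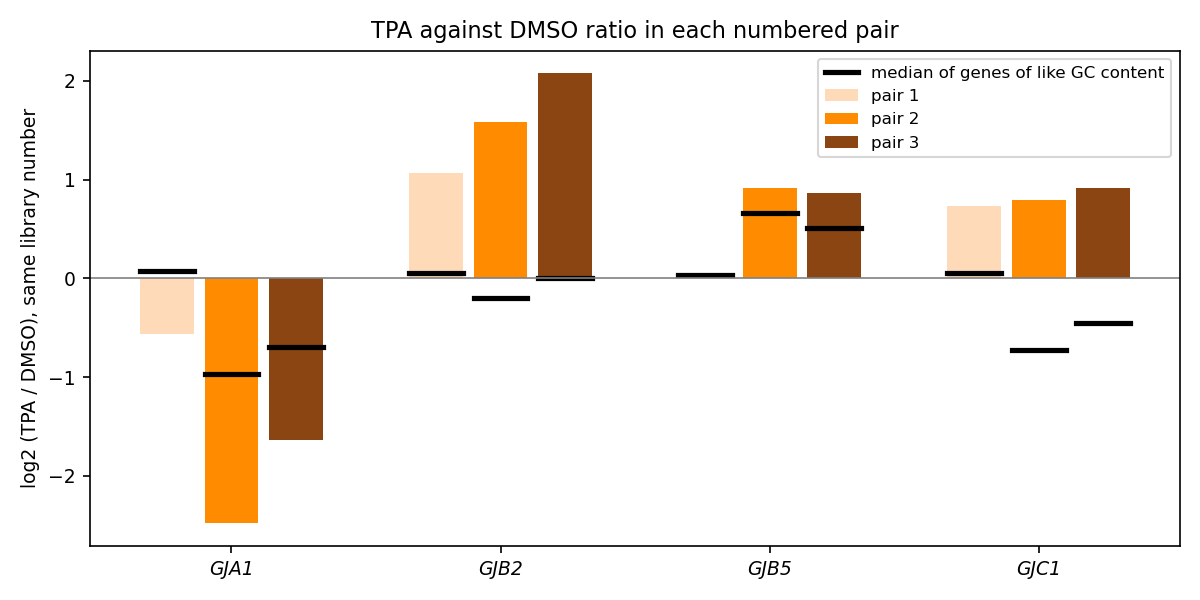
Bars show the log2 ratio of TPA over DMSO (vertical axis) between libraries of the same number for 4 connexin genes, and black lines the median of expressed genes within 1 percentage point of the same GC content. GJB2 and GJC1 stand above their black lines and GJA1 below in all 3 pairs, while the bar of GJB5 in pair 1 is at 0.01, next to its line at 0.03.

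GJC1 encodes connexin 45 (CX45), best known from cardiac conduction tissue and vascular smooth muscle. Its gene is on chromosome 17, 44798448 to 44830816, minus strand, and the table lists GJD3, for which GJC1 was once a synonym, on a row of its own. GJC1 had the most counts of the 5 members, with 6902, 6304 and 6780 in TPA and 4567, 3993 and 3587 in DMSO. In CPM these were 250.2, 212 and 221 in TPA 1, 2 and 3, against 150.3, 122 and 117 in DMSO 1, 2 and 3. The groups did not overlap, and library 1 was the highest of each. The mean of 228 ± 20.0 CPM in TPA against 129.7 ± 18.1 CPM in DMSO (SD, n = 3 each) gave a log2 fold change of 0.81 ± 0.20 (edgeR adjusted p = 0.0809), and 0.82 ± 0.23 with the replicate block (edgeR adjusted p = 0.0457).

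The GJC1 difference was nearly the same in each numbered pair, with log2 ratios of 0.73, 0.80 and 0.92. Its transcript is poor in GC, at 42.9%, and 1048 expressed genes of like content had median ratios of 0.05, -0.72 and -0.46. With the GC correction the log2 fold change of GJC1 was larger, at 1.18 ± 0.17 alone (edgeR adjusted p = 0.0236) and 1.17 ± 0.17 with the block (edgeR adjusted p = 0.0122). GJA1 and GJC1 have transcripts of similar GC content and lay on opposite sides of such genes in every pair.

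GJB5 encodes connexin 31.1 (CX31.1), a connexin of stratified epithelia. It lies on chromosome 1, 34755047 to 34758512, plus strand. GJB5 had 685, 1869 and 1809 counts in TPA and 749, 1090 and 993 counts in DMSO. The CPM values were 24.8, 62.8 and 59.0 in TPA 1, 2 and 3 and 24.7, 33.3 and 32.3 in DMSO 1, 2 and 3. TPA 2 and TPA 3 were above all DMSO libraries, but TPA 1 was level with DMSO 1, so the groups overlapped. Means were 48.9 ± 20.9 CPM in TPA and 30.1 ± 4.73 CPM in DMSO (SD, n = 3 each), and the log2 fold change was 0.70 ± 0.37 (edgeR adjusted p = 0.310).

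GJB5 did not pass with the block (0.60 ± 0.26, edgeR adjusted p = 0.139), and both corrections left 0.23 ± 0.11 (edgeR adjusted p = 0.191). The pair ratios were 0.01, 0.92 and 0.87, and the 736 expressed genes of like GC content (56.8%) had medians of 0.03, 0.66 and 0.51. Only the fits without TPA 1 called it: 1.13 without TPA 1 (edgeR adjusted p = 0.00119) and 1.05 ± 0.09 without both libraries numbered 1. The fit without TPA 1 called 24.6% of genes higher and 27.8% lower, and the one without both called 32.2% and 33.3% and compares 2 close libraries with 2.

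GJB6 encodes connexin 30 (CX30), a partner of connexin 26 in skin and in the cochlea, and lies beside GJB2 on chromosome 13 (20221962 to 20232395, minus strand). It had 0 counts in each TPA library, against 1, 0 and 1 counts in DMSO 1, 2 and 3. A count of 0 allows up to 0.0978 to 0.109 CPM in the TPA libraries (3 counts over the scaled library size), and the DMSO values of up to 0.0329 CPM are below that. No fold is given, since both groups were at or under this floor. The neighbouring GJB2 was detected in all 6 libraries.

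Per kilobase of exon, levels are adjusted for length but not for the GC trend. Reads that GJA1 may lose to GJA1P1 are not adjusted for either. On this scale the order of the members changed at its lower end (the stacked plot of levels per length). In TPA libraries GJB5 averaged 36.1 ± 15.4, GJC1 26.3 ± 2.31, GJB2 3.85 ± 1.04 and GJA1 1.46 ± 0.67 CPM per kilobase (SD, n = 3). In DMSO libraries these levels were 22.2 ± 3.49 for GJB5, 14.97 ± 2.09 for GJC1, 1.25 ± 0.20 for GJB2 and 4.11 ± 0.87 for GJA1. GJB2 was thus above GJA1 in all 3 TPA libraries and in 0 of 3 DMSO libraries. GJB5 and GJC1 did not differ beyond their spread in TPA, where GJB5 was above in 2 of 3 libraries, while in DMSO it was above in 3 of 3. The gaps between GJC1 and both low members were larger than the spread in either group.

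**Figure D3:**
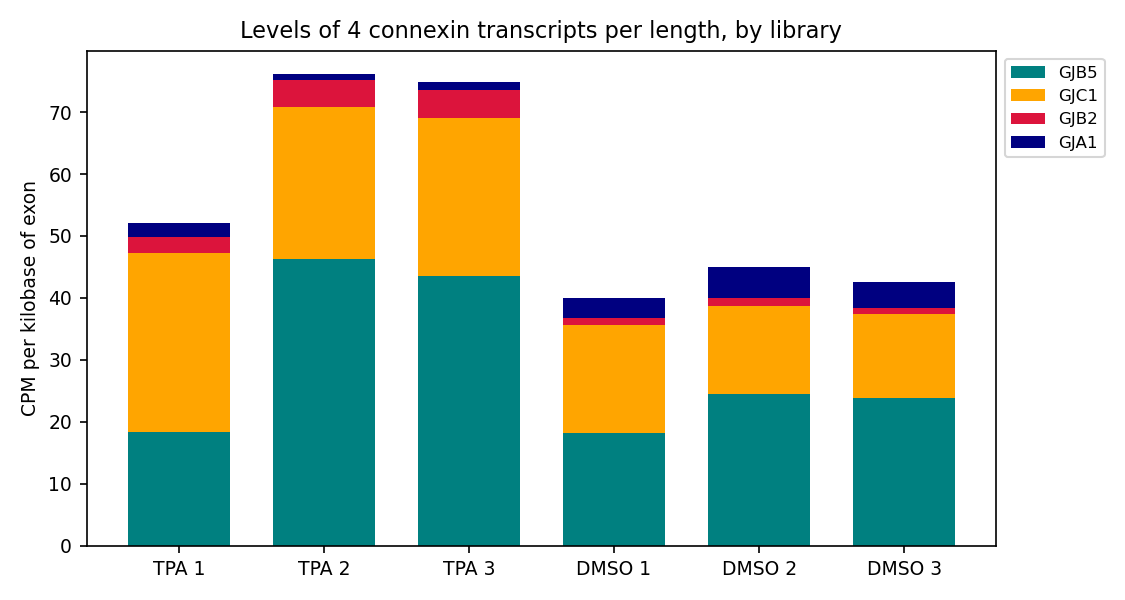
Stacked bars give CPM per kilobase of exon (vertical axis), not corrected for GC content, of GJB5, GJC1, GJB2 and GJA1 in each library. The stacks reach 52.1 in TPA 1, 76.1 in TPA 2 and 74.9 in TPA 3, against 40.0 to 45.0 in DMSO; GJB5 and GJC1 fill most of every bar.

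The summed level of the 5 members per length was 52.1, 76.1 and 74.9 in TPA 1, 2 and 3, against 40.0, 45.0 and 42.5 in DMSO 1, 2 and 3. This sum and the shares below are not corrected for GC content. GJB5 was the largest part in TPA 2 and TPA 3. Its log2 fold change was 0.70 without the GC correction and 0.24 with it (edgeR adjusted p = 0.404). GJA1 took 4.20%, 1.15% and 1.75% of the sum in TPA against 8.07%, 11.0% and 9.69% in DMSO. GJB2 took 5.09%, 5.78% and 6.02% in TPA against 3.13%, 3.22% and 2.47% in DMSO. Neither share overlapped between the groups. GJC1 took 55.5% in TPA 1, 32.2% in TPA 2 and 34.1% in TPA 3, and 31.2% to 43.3% in DMSO, and GJB5 35.2%, 60.9% and 58.1% in TPA and 45.4% to 56.1% in DMSO. The shares of GJC1 and GJB5 overlapped, with TPA 1 apart from TPA 2 and TPA 3.

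Of the 16 other connexin genes 7 were tested, and 0 passed in edgeR's test, 2 with an unadjusted p under 0.05 (22.1% of all genes); DESeq2 called 0 and limma-voom 0. Their median log2 fold change was -0.03, against -0.11 over all genes tested. That of the 4 tested members was 0.76, over values from -1.50 for GJA1 to 1.62 for GJB2. The members were chosen with earlier results of these data known, so no conclusion is drawn from the medians. With the block 0 were called, against 4.58% of all genes higher and 6.52% lower. With the block and the GC correction 0 were called higher and 2 lower, against 9.24% and 10.7%.

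GJA3, a connexin gene known from the eye lens (CX46), had 4.28, 4.94 and 5.18 CPM in TPA and 7.44, 8.70 and 7.95 CPM in DMSO. The groups did not overlap, with a log2 fold change of -0.74 ± 0.23 (edgeR adjusted p = 0.1202) and -0.74 ± 0.15 with both corrections (edgeR adjusted p = 0.0261). GJB7 and GJD3 had log2 fold changes of 0.04 ± 0.23 and -0.03 ± 0.43 and did not pass alone, with the block or with both corrections. The sign of GJB7 flipped when only library size was used for scaling, and that of GJD3 with RLE factors.

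Neighbouring connexins had opposite signs on chromosome 13. GJA3, with a negative log2 fold change, lies next to GJB2, with a positive one, and GJB6 on chromosome 13, where the nearest tested gene on the other side, the lambda-crystallin gene CRYL1, had a log2 fold change of 1.01 ± 0.38 (edgeR adjusted p = 0.183, and 0.0399 with the block). On chromosome 1, the nearest tested gene at lower coordinates than GJB5 was the zinc finger gene ZSCAN20 (0.13 ± 0.23, edgeR adjusted p = 0.768). GJA1 lies between TBC1D32 (-0.86 ± 0.32, edgeR adjusted p = 0.182) and the heat shock factor gene HSF2 (-0.47 ± 0.40, 0.516). GJC1 lies between ADAM11 (-0.32 ± 0.45, edgeR adjusted p = 0.706) and HIGD1B (0.37 ± 0.29, 0.487). With the block and the GC correction the log2 fold changes were -0.35 for TBC1D32, -0.087 for HSF2, -0.79 for ADAM11, 0.023 for HIGD1B and 0.77 for CRYL1, and that of ZSCAN20 turned to -0.11. None of these neighbours passed in edgeR's test on all libraries with no correction.

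**Figure D4:**
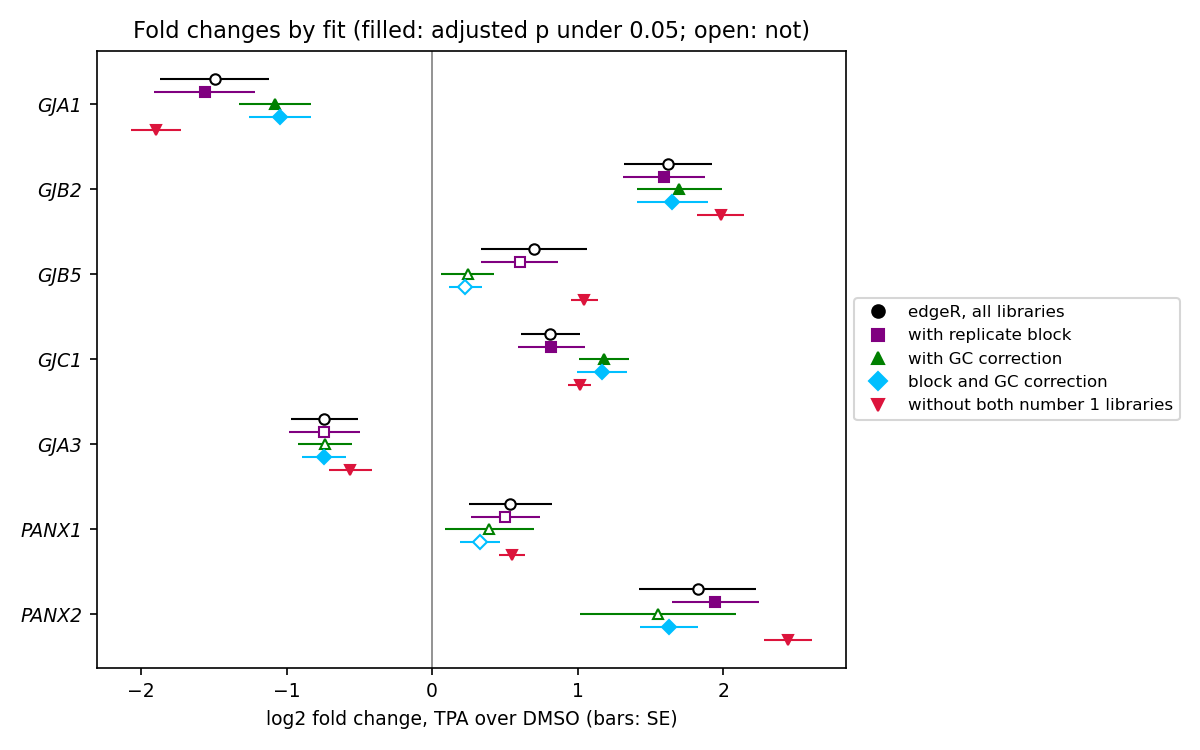
Log2 fold change of TPA over DMSO (horizontal axis, bars are SE) for 7 connexin and pannexin genes in 5 fits; filled symbols passed at an adjusted p under 0.05. GJA1, GJB2 and GJC1 are filled in every fit but edgeR on all libraries with no correction, whereas GJB5 is filled only without both libraries numbered 1.

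Pannexins form channels of their own family in the plasma membrane. PANX2 had 13.8, 11.2 and 12.2 CPM in TPA and 5.73, 2.72 and 2.05 CPM in DMSO, with no overlap. Its log2 fold change was 1.83 ± 0.40 (edgeR adjusted p = 0.0676), and it passed with the block (1.95 ± 0.30, edgeR adjusted p = 0.00413) and with both corrections (1.63 ± 0.20, edgeR adjusted p = 0.00834), but not with the GC correction alone (1.55 ± 0.54, edgeR adjusted p = 0.118). PANX1, the widely expressed channel that releases ATP, had 141, 79.0 and 87.4 CPM in TPA and 85.0, 64.6 and 62.2 CPM in DMSO, and did not pass (0.54 ± 0.29, edgeR adjusted p = 0.317).

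Proteins that bind, move or degrade connexins were checked as a list of 27 genes, 25 of them tested. EdgeR's test called 0 higher and 0 lower, with 8 at an unadjusted p under 0.05 (22.1% of all genes), and the median log2 fold change was 0.38. With the block 4 were called higher and 2 lower, against 4.58% and 6.52% of all genes, and with the block and the GC correction 10 and 2, against 9.24% and 10.7%. The ubiquitin ligase gene NEDD4L, a relative of the ligase NEDD4 that binds connexin 43, had 1325 ± 367 CPM in TPA and 461 ± 137 CPM in DMSO (SD, n = 3 each), and the log2 fold change was 1.52 ± 0.29 (edgeR adjusted p = 0.0581, and 0.00412 with the block). CAV2, a caveolin gene, had 83.4 ± 8.25 CPM in TPA and 181 ± 28.9 CPM in DMSO (-1.12 ± 0.22, edgeR adjusted p = 0.0587, and 0.0168 with the block). It had -0.60 with both corrections (edgeR adjusted p = 0.0570) and -0.51 with the GC correction alone (edgeR adjusted p = 0.387).

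Of 16 kinase genes whose products act on connexins 15 were tested, and 0 passed in edgeR's test, with 5 at an unadjusted p under 0.05 (22.1% of all genes) and a median log2 fold change of 0.26. With the block 2 were called higher and 1 lower, against 4.58% and 6.52% of all genes, and with both corrections 3 and 2, against 9.24% and 10.7%. CSNK1E, a casein kinase gene, had 304 ± 36.3 CPM in TPA and 150.1 ± 24.4 CPM in DMSO (1.02 ± 0.21, edgeR adjusted p = 0.0651, and 0.0297 with the block). With the GC correction alone it was 0.64 (edgeR adjusted p = 0.113), and with both corrections 0.65 (edgeR adjusted p = 0.0126). PRKCD, a phorbol-responsive protein kinase C gene, had 59.5 ± 9.09 CPM in TPA and 31.4 ± 3.77 CPM in DMSO. It had a log2 fold change of 0.92 ± 0.22 (edgeR adjusted p = 0.0780, and 0.0417 with the block). For PRKCD the GC correction alone gave 0.54 (edgeR adjusted p = 0.109), and both corrections gave 0.545 (edgeR adjusted p = 0.0200).

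Of 14 transcription factor genes listed for connexin promoters 13 were tested, and 1 rose and 0 fell, against 0.861% and 0.394% of all genes, with a median log2 fold change of 0.42. The AP-1 subunit gene JUNB rose to 249.6 ± 53.5 CPM in TPA, against 102 ± 4.60 CPM in DMSO (1.29 ± 0.23, edgeR adjusted p = 0.0498). That call was lost with upper-quartile factors, by library size only and without any 1 library other than TPA 1 (edgeR adjusted p = 0.0544 to 0.330), with the same direction. FOSL1, another AP-1 subunit gene, had 603 ± 67.7 CPM in TPA and 179 ± 104 CPM in DMSO (1.75 ± 0.39, edgeR adjusted p = 0.0681, and 0.00392 with the block). It did not pass with the GC correction alone (1.43, edgeR adjusted p = 0.126) but passed with both corrections (1.53, edgeR adjusted p = 0.00412). With the block 3 of the list were called higher and 1 lower, against 4.58% and 6.52% of all genes, and with both corrections 3 and 2, against 9.24% and 10.7%.

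The genes whose log2 CPM over the 6 libraries ran closest to each member's differed between members. Among 12203 other genes with an average log2 CPM of at least 1, the highest Pearson correlations with GJA1 were those of CLASP1 (0.998), NARS2 (0.997) and OTULIN (0.997). For GJB2 they were ATXN1L (0.999), KDM7A-DT (0.997) and TMEM14B (0.997). For GJB5 they were CDC25A (0.9996), TMEM164 (0.999) and GABARAP (0.999), and for GJC1 AMPD3 (0.999), MSX1 (0.997) and TXNDC11 (0.997). AMPD3 had 66.6, 37.8 and 40.8 CPM in TPA and 7.57, 2.96 and 2.74 CPM in DMSO, a log2 fold change of 3.45 against 0.81 for GJC1, with the same ranking of the 6 libraries. The 3 genes named are not alone in this: 26, 22, 196 and 50 of the 12203 genes passed r = 0.99 with GJA1, GJB2, GJB5 and GJC1. They share libraries, depth and the GC trend and carry no p-value.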

How the data were processed

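RNA-seq of total RNA from KYSE150 cells was deposited as raw read counts per gene symbol for 3 TPA and 3 DMSO libraries. Per the submitters' processing notes, the aligner HISAT2 2.1.0 and the counter HTSeq 0.12.4 were used, and the builds are given as hg38 and GRCh38. The sources used here give neither strand setting nor annotation release, so reads of overlapping genes on opposite strands cannot be separated. Columns named control were taken as the DMSO samples of the same number.

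All 21825 genes that passed filterByExpr were tested in edgeR 4.0.16 (R 4.3.3) by the quasi-likelihood test on TMM factors and no covariate beside the group, and p-values were adjusted by Benjamini-Hochberg and called at 0.05. SE is the log2 fold change over the square root of F. CPM is counts over the TMM-scaled library size. The floor for a count of 0 covers counting error only. Exon length and GC content came from GENCODE 29, which gave a GC value for 96.2% of tested genes. The GC correction used a robust spline (5 degrees of freedom) per library. Same-numbered libraries deviated together from their group means (r across genes 0.55, 0.34 and 0.37), so the numbers were taken as pairs, a choice made on the data, since the labels state no batch. Deviations within a group cancel out. A shared deviation of the libraries numbered 1 therefore makes the values among numbers 2 and 3 positive on average by itself. Crossed numbers 2 and 3 gave 0.36 and 0.37, so pairs 2 and 3 cannot be told apart.

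Alternatives were RLE, upper-quartile or no scaling factors, no filter or a filter of 1 CPM and 60 counts, DESeq2 1.42.0, limma-voom (limma 3.58.1), the block, the GC correction, left-out libraries and a threshold of 0.01. Members and lists were chosen with earlier results of these data known. Named genes were all members, connexins and pannexins with at least 10 counts in every library of a group, list genes that passed or the 2 of lowest adjusted p, chromosomal neighbours and the 3 most similar genes. Of the fits, only edgeR's test with no correction was tested on simulated counts. Those counts held no GC trend and no library that stood apart from its group. Some connexin genes and a neighbouring gene are not reported here.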

Additional observations from a re-analysis of the deposited data

How the results depend on the processing

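Beside 188 genes higher and 86 lower over the whole table, other settings gave 429 and 202 with no filter, 1702 and 915 with DESeq2, 1000 and 1423 with the replicate block, 713 and 673 with the GC correction, 1940 and 2247 with the replicate block with GC correction, 7216 and 7475 without both libraries numbered 1, and 0 and 0 at an adjusted p of 0.01 (edgeR; 4814 genes had an unadjusted p under 0.05). Lower calls were 219 by library size only and 130 with limma-voom. Leaving out 1 library gave 0 to 5577 higher and 0 to 6297 lower (edgeR), with the highest counts without TPA 1 and 0 in both directions without DMSO 2 or DMSO 3 (2612 and 2745 at an unadjusted p under 0.05). Scaling by library size only placed the median gene at a log2 fold change of -0.36 and RLE factors at -0.0093, beside -0.11 with TMM factors.

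GJA1, GJB2, GJB5 and GJC1 kept their direction in every alternative run. GJA1 passed with DESeq2 (-1.40), the replicate block (-1.56), the GC correction (-1.08), both (-1.04) and without both libraries numbered 1 (-1.90), and with 1 library left out ran from -1.80 (without TPA 1, passed) to -1.22. GJB2 passed with RLE factors (1.73), no filter (1.73), DESeq2 (1.73), the block (1.59), the GC correction (1.70), both (1.65) and without both libraries numbered 1 (1.98), and with 1 library left out ran from 1.51 to 1.94 (without TPA 1, passed). GJC1 passed with DESeq2 (0.91), the block (0.82), the GC correction (1.18), both (1.17) and without both libraries numbered 1 (1.01), and with 1 library left out ran from 0.75 to 0.94; it passed without TPA 1. GJB5 passed without both libraries numbered 1 (1.05), and with 1 library left out ran from 0.50 to 1.13 (without TPA 1, passed). The cause of these changes was not tested. GJB6 had no value outside the fit with no filter.

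Among the connexins and pannexins named with values, signs turned for GJB7 by library size only (-0.21) and with the stricter filter (-0.029), and for GJD3 with RLE factors (0.088), no filter (0.085), DESeq2 (0.088), without both libraries numbered 1 (0.23) and, with 1 library left out, over a range of -0.22 to 0.38. GJA9, a connexin gene with 4 to 14 counts in a library, had -0.29 in edgeR's test and turned with the GC correction (0.18), with the block added (0.094) and without both libraries numbered 1 (0.15). At 0 to 1 counts in a library, GJB6 allowed no comparison.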

Other observations

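GJA4, the gene of connexin 37 (CX37), a connexin of endothelium that lies in the chromosome 1 cluster with GJB5, had 4, 4 and 1 counts in TPA and 12, 7 and 17 counts in DMSO. It did not pass the filter on low counts, and without a filter its log2 fold change was -1.78 ± 0.69 (edgeR adjusted p = 0.226). It was named after its values were seen.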
